A study of Homo sapiens with 8 samples.

Results

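The MYC, MAX and MXD network was followed through 10 genes, chosen by name: MYC, MYCN, MYCL, MAX, MXI1, MXD1, MXD3, MXD4, MNT and MLX. Each name matched 1 of the 60332 genes of the expression table. All 10 were among the 15372 genes tested, those with at least 1 FPKM (fragments counted per length of transcript and per depth of library) in at least 2 libraries. Poly-A RNA came from SK-N-MC, an established Ewing sarcoma cell line, in 8 libraries that form 4 groups of 2. Every cell pool carried lentiviral dCas9-KRAB, a Cas9 that cannot cut DNA fused to a repressor domain, and was selected with puromycin. Control pools held the empty vector, and the paper calls the control cells of this experiment parental. The eKD1 and eKD2 pools each held 1 of 2 guides that direct the repressor next to the GGAA microsatellite enhancer of LOXHD1. Control pools were grown in normoxia or kept at 1% oxygen over 16 h, and only hypoxic eKD libraries were analysed here. Each guide stands for 1 polyclonal pool, so the guide and its pool cannot be told apart. The study describes the libraries of a group as biological duplicates.

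Proteins of the MYC family (MYC, MYCN, MYCL) are transcription factors that pair with MAX through a basic helix-loop-helix leucine zipper and bind the E-box CACGTG, where they activate genes of ribosome assembly, metabolism and growth. The MXD proteins, MXI1 and MNT compete for the same MAX and bring the SIN3-histone deacetylase corepressor to E-boxes, so that they oppose MYC. MLX pairs with the glucose-responsive factors MondoA and ChREBP and with some of the repressors, which links both arms. MXI1 is a known target of hypoxia-inducible factor 1 (HIF-1).

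LOXHD1, the gene whose enhancer was targeted, was at 155.8 and 168.5 FPKM in control normoxia. It was at 93.01 and 91.1 FPKM in the hypoxic controls, at 17.3 and 15 FPKM with the eKD1 guide and at 11.7 and 11.8 FPKM with the eKD2 guide. All 8 HIF targets checked rose in control hypoxia, where 16.2% of all tested genes rose. In eKD2, 3 of them rose further, where 5.8% of all genes rose, and 5 did not pass. Called or not, 5 of the 8 were higher and 3 lower in eKD2 than in control hypoxia. In eKD1 limma called 0 of 8, with 4 higher and 4 lower, and 3 had an unadjusted p under 0.05, against 21.7% of all genes. The 7 Ewing sarcoma markers were at 10.8 FPKM or more in every library. In control hypoxia 5 of them fell and 1 (CD99) rose, where 16% of all tested genes fell and 16.2% rose. In eKD2, NR0B1, LIPI and CCND1 rose and CD99 fell beside the changes of the network, where 5.8% of all genes rose and 3.81% fell. In eKD1 limma called 0 of these 7 markers, with 6 at an unadjusted p under 0.05, against 21.7% of all genes. The part of these markers in the results was not tested. Of the 7 markers of other cell types in the table, CD3E was listed at 0 throughout and ALB and CDH5 stayed under 1 FPKM. EPCAM (3.39 to 5.80 FPKM), DCN (130.8 to 153.1 FPKM) and LUM (37.0 to 52.0 FPKM) were detected in every library. The leukocyte marker PTPRC was the only one called, with 22.5 and 23.8 FPKM in normoxia and 4.87 and 5.39 FPKM in control hypoxia, then 10.03 and 9.59 FPKM (eKD1) and 14.3 and 13.5 FPKM (eKD2). Its part in the results was not tested.

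Promoters were compared because the proteins of this network bind a short known motif. RefSeq start sites gave 12 windows of the 250 bases before a start for 9 of the 10 genes, and the MYC promoter was not analysed here. The E-box CACGTG, which reads the same on both strands, was in 3 of the 12 windows (MXD4, MNT and MLX), against 6.34% of all 35116 RefSeq windows of this length. The hypoxia-response core ACGTG, searched on both strands and contained in every E-box, was in 5 windows, against 18.5% of all. Apart from the E-boxes it occurred in 1 window of MAX and 1 of MXI1. GCGTG, the other form of the core, was in 4 windows, against 32.2% of all. The windows shown are those with an E-box and the MXI1 window with the core, since MXI1 differed most between the guides. They were placed on GRCh37 by an exact match, are written along the gene's strand, and carry the motif in capitals (for MXI1 the core as read on the opposite strand).
MXD4, chr4:2263837-2264086, minus strand, motif from 238 bases before the start: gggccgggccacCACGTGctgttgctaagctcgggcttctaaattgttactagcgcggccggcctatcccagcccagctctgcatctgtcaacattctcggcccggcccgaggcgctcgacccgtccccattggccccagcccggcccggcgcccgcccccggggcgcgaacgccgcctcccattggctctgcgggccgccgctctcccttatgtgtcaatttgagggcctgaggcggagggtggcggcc
MNT, chr17:2304355-2304604, minus strand, motif from 193 bases before the start: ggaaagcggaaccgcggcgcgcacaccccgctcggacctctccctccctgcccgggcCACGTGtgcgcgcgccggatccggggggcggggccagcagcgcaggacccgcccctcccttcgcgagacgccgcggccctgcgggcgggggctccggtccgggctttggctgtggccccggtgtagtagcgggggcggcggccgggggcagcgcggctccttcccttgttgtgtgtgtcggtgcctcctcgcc
MLX, chr17:40718868-40719117, plus strand, motif from 50 bases before the start: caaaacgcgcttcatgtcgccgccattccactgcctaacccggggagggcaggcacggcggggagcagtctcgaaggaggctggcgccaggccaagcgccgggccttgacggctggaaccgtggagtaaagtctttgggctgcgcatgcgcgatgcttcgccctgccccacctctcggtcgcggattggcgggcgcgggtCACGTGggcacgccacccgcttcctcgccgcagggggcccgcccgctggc
MXI1, second of 3 starts, chr10:111969739-111969988, plus strand, motif from 113 bases before the start: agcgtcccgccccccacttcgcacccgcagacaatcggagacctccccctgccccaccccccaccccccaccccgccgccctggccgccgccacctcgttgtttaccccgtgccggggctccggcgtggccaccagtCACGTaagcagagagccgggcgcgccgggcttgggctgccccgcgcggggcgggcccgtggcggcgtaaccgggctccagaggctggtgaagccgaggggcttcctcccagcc

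MYC was by far the most abundant gene of its family, and the repressor partners were spread over MXI1, MXD3 and MXD4. FPKM is scaled to transcript length, so levels can be compared between genes. Over the 8 libraries MYC averaged 217.4 FPKM, above 95.9% of the tested genes. MAX averaged 52.8 FPKM and MLX 32.3 FPKM. Among the repressors, the highest mean was that of MXD3 in normoxia (20.3 FPKM), control hypoxia (35.1 FPKM) and eKD1 (32.7 FPKM), and that of MXI1 in eKD2 (57.7 FPKM). MXD3 shares 926 of its 4743 exonic bases with RAB24 and 1148 with PRELID1, which averaged 240.1 FPKM in normoxia. The level and rank of MXD3 are therefore uncertain. MYCL (3.45 FPKM), MYCN (2.74 FPKM) and MXD1 (1.79 FPKM) were low, and the log2(FPKM + 1) scale used for all changes understates theirs. The level of MXD1 is uncertain too, since it shares 237 of its 6351 exonic bases with SNRNP27. MYC made up 95.9% to 98.2% of the summed FPKM of its family in every library. In bulk RNA, less RNA per cell and fewer cells that hold it cannot be told apart.

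**Figure D1:**
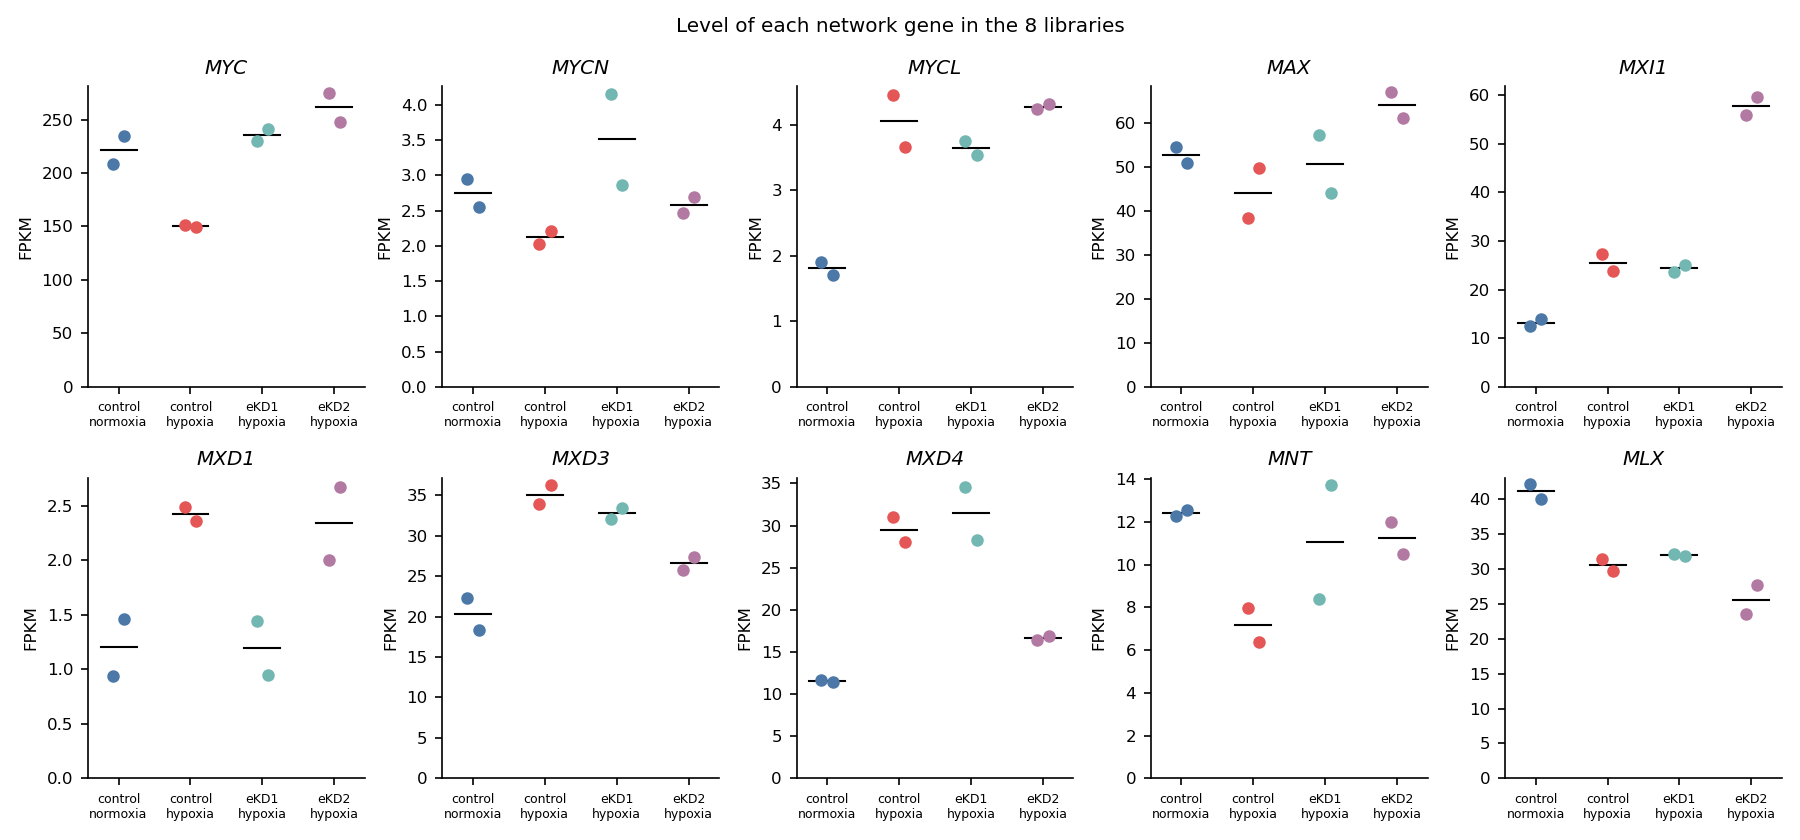
FPKM of the 10 genes in the 8 libraries. Each panel is a gene with its own axis from 0, points are libraries and the line is the mean of the 2 libraries of a group; MYC is lowest in control hypoxia (151.6 and 149.2 FPKM) and MXI1 highest in eKD2 (55.9 and 59.5 FPKM).

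Hypoxic and normoxic controls were compared to ask how the network responds to low oxygen. MYC, MNT and MLX fell, and MXI1, MXD3, MXD4 and MYCL rose. Limma called these 7 of 10 genes at an adjusted p under 0.05, where 32.2% of all tested genes were called, 16.2% higher and 16% lower. With no adjustment, 8 of 10 genes had a p under 0.05, against 45.9% of all genes, and 10 of 10 had groups that did not overlap against 70.4%. The median log2 change was 0.19 for the 10 genes and 0.01 for all tested genes. With all library totals set equal, which moved the median of all genes to -0.19 and the calls from 2486 higher and 2460 lower to 1566 higher and 3944 lower, all 10 genes kept their direction.

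MYC (chromosome 8, 128747680 to 128755197, plus strand, GRCh37) was at 208.9 and 234.8 FPKM in normoxia and at 151.6 and 149.2 FPKM in hypoxia. Both hypoxic libraries were below both normoxic ones, at 67.8% of the normoxic mean (log2 change -0.56, SE 0.0746, limma adjusted p = 0.0160). MYCL, a family member of more restricted expression (chromosome 1, 40361100 to 40367928, minus strand), went from 1.90 and 1.71 FPKM to 4.46 and 3.67 FPKM. It was higher in both hypoxic libraries (log2 change 0.85, SE 0.168, limma adjusted p = 0.0329) and remained far below MYC. MYCN, best known from neuroblastoma (chromosome 2, 16080672 to 16087129, plus strand), was at 2.95 and 2.55 FPKM and then 2.02 and 2.22 FPKM, which missed the threshold (log2 change -0.26, limma adjusted p = 0.273).

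MAX, the shared partner (chromosome 14, 65472892 to 65569413, minus strand), was at 54.5 and 50.8 FPKM in normoxia and at 38.3 and 49.7 FPKM in hypoxia. The groups did not overlap, but the hypoxic duplicates differed widely and the change missed the threshold (log2 change -0.26, limma adjusted p = 0.253). MAX shares 822 of its 6257 exonic bases with FNTB on the opposite strand, and the kit does not mark strand, so reads there cannot be told apart. FNTB fell (from a mean of 45.2 to 14.9 FPKM, log2 change -1.61, limma adjusted p = 0.0395), and its part in the MAX value was not tested.

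MXD4, a repressor known from resting and differentiating cells (chromosome 4, 2249159 to 2263836, minus strand), changed most. It was at 11.6 and 11.4 FPKM in normoxia and at 31 and 28.03 FPKM in hypoxia, 2.56-fold higher (log2 change 1.28, SE 0.0987, limma adjusted p = 0.00810). MXI1 (chromosome 10, 111967363 to 112047123, plus strand) went from 12.5 and 13.99 FPKM to 27.4 and 23.7 FPKM, 1.93-fold higher (log2 change 0.90, SE 0.123, limma adjusted p = 0.0168). In both genes the groups were far apart compared with the spread of the duplicates.

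MXD3, linked to the S phase of dividing cells (chromosome 5, 176728462 to 176739758, minus strand), was at 22.2 and 18.3 FPKM in normoxia and 33.9 and 36.3 FPKM in hypoxia (log2 change 0.77, SE 0.127, limma adjusted p = 0.0232). It shares 926 of its 4743 exonic bases with RAB24 and 1148 with PRELID1, so its value is uncertain. RAB24 rose as well (from a mean of 17.9 to 33.1 FPKM, log2 change 0.85, limma adjusted p = 0.0108), PRELID1 did not pass (limma adjusted p = 0.938), and their part was not tested. MXD1, the founding MXD protein (chromosome 2, 70124820 to 70170077, plus strand), was at 0.940 and 1.46 FPKM and then 2.49 and 2.36 FPKM. The change missed the threshold (log2 change 0.65, limma adjusted p = 0.0783). MXD1 shares 237 of its 6351 exonic bases with SNRNP27 on the same strand, so its low value is uncertain. SNRNP27 went from a mean of 50.2 to 57.9 FPKM and did not pass (log2 change 0.20, limma adjusted p = 0.164). The part of SNRNP27 in the MXD1 value was not tested in any comparison.

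MNT, a widely expressed MAX-binding repressor (chromosome 17, 2287367 to 2304398, minus strand), went the other way from the MXD genes, from 12.3 and 12.6 FPKM to 7.99 and 6.40 FPKM (log2 change -0.72, SE 0.148, limma adjusted p = 0.0355). MLX (chromosome 17, 40719090 to 40725257, plus strand) went from 42.2 and 40.1 FPKM to 31.4 and 29.7 FPKM (log2 change -0.42, SE 0.0772, limma adjusted p = 0.0288). Both were lower in each hypoxic library. MNT shares 1065 of 8701 exonic bases with a long non-coding RNA, and MLX 775 of 4255 with PSMC3IP, both on the opposite strand.

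In a fit shared by the remaining libraries, leaving out any 1 of the 4 control libraries ended the calls of MNT (adjusted p 0.0890 to 0.202) and MLX (0.0528 to 0.0935), and the other 5 stayed called. With equal totals MXD3 had an adjusted p of 0.05004 (0.00309 to 0.0720 over the alternatives that keep all libraries), and without a filter on low values MXD4 and MLX alone were called.

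In eKD1, MYC was higher than in the hypoxic controls in both libraries, yet limma called 0 of the 10 genes, where 0.0651% of all tested genes were called. At an unadjusted p under 0.05, 2 of 10 genes differed, MYC and MXD1, against 21.7% of all genes, and 6 of 10 did not overlap against 53.6%. MYC was at 230.1 and 240.9 FPKM, 1.57-fold the control hypoxia mean (log2 change 0.64, SE 0.0486, limma unadjusted p = 0.000256, adjusted p = 0.102). It passed in the fit that shares the spread of all 8 libraries (adjusted p = 0.0172), where 4.95% of genes were called, and among protein-coding genes alone (adjusted p = 0.0422), with 0.0172 to 0.249 over the alternatives. Without any 1 of the 4 libraries the shared fit gave 0.0712 to 0.116 and no call.

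MXD1 was at 1.44 and 0.944 FPKM in eKD1, below both hypoxic controls and inside the normoxia range (log2 change -0.65, limma adjusted p = 0.186). SNRNP27, which shares exonic bases with MXD1, did not pass either (log2 change 0.01, limma adjusted p = 0.956), and its part was not tested. MXI1 was at 23.7 and 25.1 FPKM and overlapped the hypoxic controls (log2 change -0.06, limma adjusted p = 0.765), with the sign turned under equal totals (0.00530). MXD4 at 34.5 and 28.3 FPKM overlapped them too (log2 change 0.08, limma adjusted p = 0.751). MXI1, MXD3 and MXD4 thus lay above the normoxia range in both eKD1 libraries. MXD3 was at 32.05 and 33.4 FPKM (log2 change -0.10, limma adjusted p = 0.529).

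MNT was at 8.39 and 13.7 FPKM, duplicates further apart than in any other group (log2 change 0.53, limma adjusted p = 0.364). MYCN was at 4.16 and 2.86 FPKM (log2 change 0.52, limma adjusted p = 0.268) and MYCL at 3.75 and 3.54 FPKM (log2 change -0.12, limma adjusted p = 0.704). The partner MAX was at 57.2 and 43.9 FPKM (log2 change 0.20, limma adjusted p = 0.611). For MLX the values were 32.2 and 31.8 FPKM (log2 change 0.07, limma adjusted p = 0.653), so none of these genes passed.

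**Figure D2:**
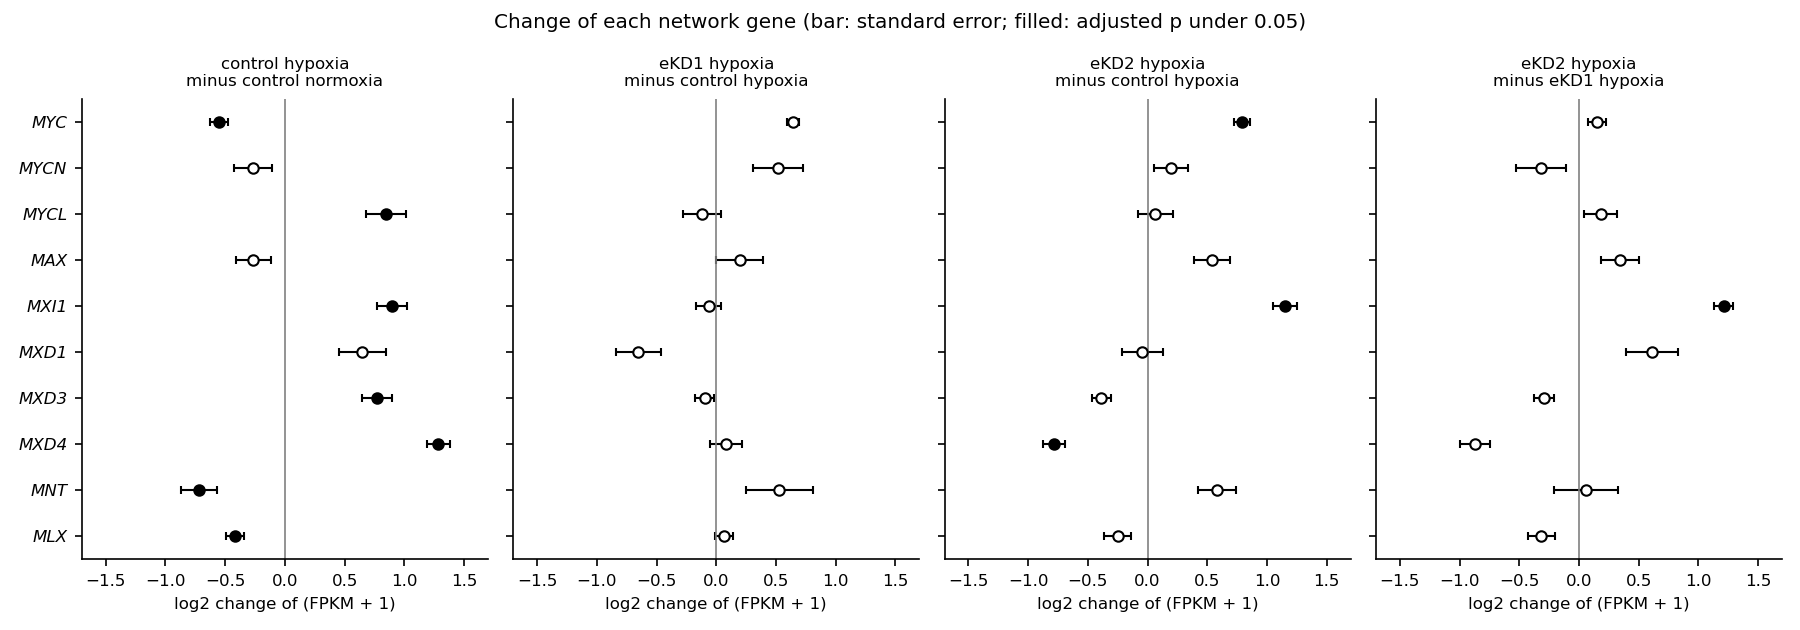
Change of the 10 genes in 4 comparisons on the log2(FPKM + 1) scale, with the standard error as a bar. Filled points passed an adjusted p under 0.05 by limma: 7 genes in hypoxia, 0 in eKD1, 3 in eKD2 and 1 between the guides.

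In eKD2, MYC and MXI1 rose and MXD4 fell against the hypoxic controls. Limma called these 3 of 10 genes, where 9.61% of all tested genes were called, 5.8% higher and 3.81% lower. With no adjustment, 6 of 10 had a p under 0.05, against 32.8%, 8 of 10 did not overlap against 62.1%, and the shared fit called the same 3 against 16.9% of all genes. The hypoxic controls enter the hypoxia, eKD1 and eKD2 comparisons alike, so these are not independent. The median log2 change was 0.13 for the 10 genes and 0.05 for all. The calls over all genes split into 891 higher and 586 lower, into 756 and 838 with median-of-ratios rescaling, and into 1478 and 430 with equal totals, which put the median of all genes at 0.14.

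MYC was at 275.2 and 248.1 FPKM in eKD2, above every control library and 1.74-fold the control hypoxia mean (log2 change 0.79, SE 0.0675, limma adjusted p = 0.0280). MXI1 was at 55.9 and 59.5 FPKM, 2.26-fold (log2 change 1.15, SE 0.1, limma adjusted p = 0.0284). Both eKD2 libraries held far more MXI1 than any library of the other groups, whose highest was 27.4 FPKM. MXD4 was at 16.5 and 16.8 FPKM, 56.5% of control hypoxia (log2 change -0.79, SE 0.0914, limma adjusted p = 0.0334) and still above both normoxia libraries.

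MXD3 was at 25.8 and 27.4 FPKM, between the normoxic and the hypoxic controls (log2 change -0.39, limma adjusted p = 0.0678), and passed among protein-coding genes alone (adjusted p = 0.0474, 0.0474 to 0.118 over the alternatives). MNT was at 11.99 and 10.5 FPKM (log2 change 0.58, limma adjusted p = 0.101). MXD1 was at 2.004 and 2.67 FPKM and overlapped the hypoxic controls (log2 change -0.04, limma adjusted p = 0.886), with the sign turned under equal totals (0.0306). None of these 3 repressors passed over all genes.

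MAX was at 66.9 and 61.05 FPKM, above all other libraries (log2 change 0.54, limma adjusted p = 0.107). FNTB, which shares exonic bases with MAX, went from a mean of 14.9 to 28.6 FPKM (log2 change 0.97, limma adjusted p = 0.157). The part of FNTB in the MAX value was not tested. MLX was at 23.5 and 27.7 FPKM, below all other libraries (log2 change -0.25, limma adjusted p = 0.220). Neither MAX nor MLX passed. MYCL at 4.24 and 4.32 FPKM (log2 change 0.06, limma adjusted p = 0.799) and MYCN at 2.46 and 2.69 FPKM (log2 change 0.20, limma adjusted p = 0.403) did not pass either.

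All 3 eKD2 calls were lost without a filter or without a variance trend (adjusted p 0.0535 to 0.0569), and kept their direction. In the shared fit MXD4 alone was lost without replicate 1 of control hypoxia (adjusted p = 0.0641) or replicate 1 of eKD2 (0.0552), with 0.00913 to 0.0940 over the alternatives that keep all libraries.

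eKD2 was set against eKD1 to ask whether the guides gave the same network profile. MXI1 was 2.37-fold higher in eKD2 (log2 change 1.21, SE 0.0789, limma adjusted p = 0.0461) and was the 1 of 10 genes called, where 0.403% of all tested genes were called. At an unadjusted p under 0.05, 3 of 10 differed against 23.6%, and 9 of 10 did not overlap against 55.2%. The adjusted p of MXI1 was 0.0521 with median-of-ratios rescaling and 0.0551 with equal totals (0.00368 to 0.207 over the alternatives). MXD4 was at 53% of its eKD1 level (log2 change -0.87, SE 0.129, limma adjusted p = 0.0874) and passed in the shared fit (adjusted p = 0.0127, 0.0127 to 0.207 over the alternatives), where 9.05% of genes were called. Leaving out a library, it was called in that fit without replicate 2 of eKD1 alone (0.0332 to 0.0741). MYC missed the threshold (log2 change 0.15, SE 0.0725, limma adjusted p = 0.312), and the other 7 genes had limma adjusted p-values from 0.161 (MXD3) to 0.921 (MNT).

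The order of the groups differed from gene to gene. The MYC mean was 150.4 FPKM in control hypoxia, 221.8 in normoxia, 235.5 in eKD1 and 261.6 in eKD2, and of these neighbours normoxia and eKD1 overlapped. The MXI1 mean was 13.2 FPKM in normoxia, 24.4 in eKD1, 25.6 in control hypoxia and 57.7 in eKD2, where eKD1 and control hypoxia overlapped. The MXD4 mean was 11.5 FPKM in normoxia, 16.7 in eKD2, 29.5 in control hypoxia and 31.4 in eKD1, and the last 2 overlapped. MXD3 and MLX had no overlap between neighbours. Normoxia was lowest and control hypoxia highest for MXD3, and eKD2 lowest and normoxia highest for MLX.

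The balance of activating and repressing partners was described by sums of FPKM, with no test. These sums leave out MGA, a repressive MAX partner that is not among the 10 genes. MGA averaged 12.5 FPKM in normoxia, 5.22 in control hypoxia, 7.25 in eKD1 and 9.34 in eKD2. The 5 repressors (MXI1, MXD1, MXD3, MXD4 and MNT) summed to 59.5 and 57.7 FPKM in normoxia, and to 102.7 and 96.8 FPKM (control), 100.1 and 101.5 FPKM (eKD1) and 112.2 and 117 FPKM (eKD2) in hypoxia. MXD3, whose value is uncertain because of shared exons, made up 23% to 37.5% of these sums. The make-up of the sum differed more between the hypoxic groups than the sum itself. MXI1 was 26.6% and 24.5% of it in the controls, 23.6% and 24.7% in eKD1 and 49.9% and 50.9% in eKD2. MXD4 was 30.2% and 28.9%, 34.5% and 27.9% and 14.7% and 14.4% in the same order. MNT was 20.6% and 21.8% of it in normoxia and at most 13.5% in hypoxia.

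The ratio of MYC to MXI1 FPKM was 16.7 and 16.8 in normoxia. Among the hypoxic libraries it was 5.54 and 6.28 for the controls, 9.73 and 9.61 for eKD1 and 4.92 and 4.17 for eKD2. The guides thus lay on either side of the hypoxic controls. The MYC family over the repressors was 3.59 and 4.14 in normoxia, 1.54 and 1.60 in the hypoxic controls, 2.38 and 2.44 in eKD1 and 2.51 and 2.18 in eKD2.

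**Figure D3:**
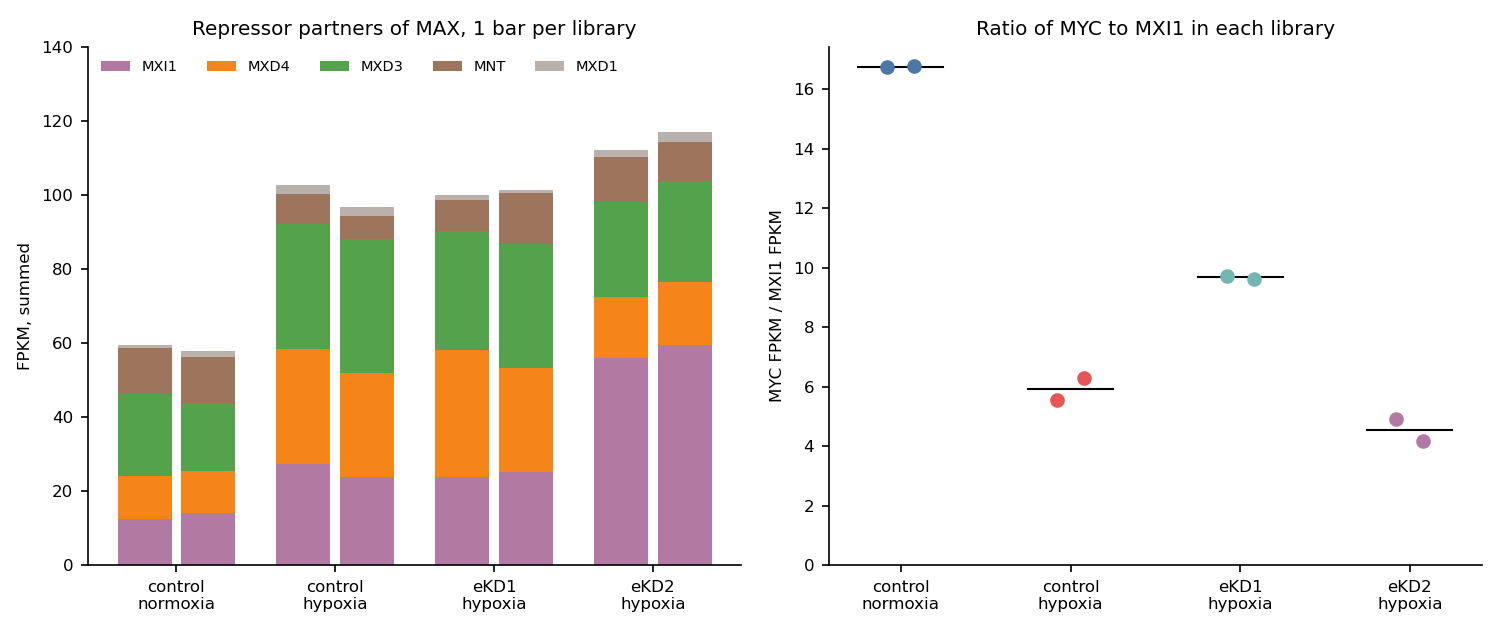
Left, stacked FPKM of MXI1, MXD4, MXD3, MNT and MXD1, repressor partners of MAX, without MGA, 1 bar per library. Right, the ratio of MYC to MXI1 FPKM per library, with the mean of the 2 libraries as a line. MXI1 takes 49.9% and 50.9% of the stack in eKD2, and the ratio runs from 4.17 in eKD2 to 16.8 in normoxia.

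Genes around the network were read from lists of known targets, cofactors and regulators. These lists were chosen with earlier results of these data known, so their counts are descriptions. Of 35 genes that MYC is known to activate, 24 fell, 3 rose and 8 did not pass in hypoxia (median log2 change -0.68, against 0.01 for all tested genes, of which 16% fell and 16.2% rose). The largest falls were in the ribosome assembly factors RRS1 (from a mean of 57.8 to 12.3 FPKM, log2 change -2.15, limma adjusted p = 0.00665) and RRP9 (from a mean of 29.4 to 6.19 FPKM, log2 change -2.08, limma adjusted p = 0.00691). CCND2, a cyclin of the G1 phase (log2 change 0.86), FBL, a nucleolar RNA methyltransferase (0.57), and AHCY of the methionine cycle (0.24) rose, though AHCY was at -0.00372 with equal totals.

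In eKD1 limma called 0 of these 35 genes, with 9 at an unadjusted p under 0.05, near the 21.7% of all genes, and a median of 0.06, against 0.0024 for all. In eKD2, 3 rose, 5 fell and 27 did not pass (median 0.07, against 0.05 for all genes, of which 5.8% rose and 3.81% fell). RRP9 (from a mean of 6.19 to 14.3 FPKM, log2 change 1.09, limma adjusted p = 0.0417) and the snoRNP protein GAR1 (from a mean of 28.2 to 45.1 FPKM, log2 change 0.66, limma adjusted p = 0.0303) rose most. HSPE1, a mitochondrial co-chaperone (from a mean of 347.8 to 201 FPKM, log2 change -0.79, limma adjusted p = 0.0242), and PHB, a mitochondrial scaffold protein (from a mean of 449.6 to 322.4 FPKM, log2 change -0.48, limma adjusted p = 0.0369), fell most. RRP9 averaged 12.9 FPKM in eKD1 and 14.3 FPKM in eKD2, against 29.4 FPKM in normoxia.

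Of the 8 tested genes that MYC is known to repress, 6 rose and 1 fell in hypoxia (median 1.20), against 16.2% and 16% of all genes. CDKN1A, an inhibitor of cyclin-dependent kinases (from a mean of 1.41 to 6.92 FPKM, log2 change 1.72, limma adjusted p = 0.00899), and GADD45A, a growth arrest gene (from a mean of 4.11 to 15.7 FPKM, log2 change 1.71, limma adjusted p = 0.00809), rose most, and GAS1 fell (from a mean of 59.2 to 19.1 FPKM, log2 change -1.58, limma adjusted p = 0.00657). NDRG1 on this list is itself a known hypoxia-induced gene. In eKD1 limma called 0 of 8, with 2 at an unadjusted p under 0.05, near the 21.7% of all genes. In eKD2, GAS1 (log2 change 0.76) and the kinase inhibitor CDKN1B (0.57) rose and the ferritin gene FTH1 fell (-0.33), where 5.8% of all genes rose and 3.81% fell. Called or not, 6 of the 8 were lower and 2 higher, and the list's median was -0.35, against 0.05 for all. An unadjusted p under 0.05 was seen for 6 of 8, against 32.8% of all genes.

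TXNIP and ARRDC4, arrestin-like genes that MLX with MondoA activates, rose in hypoxia. TXNIP went from 6.48 and 7.84 FPKM to 88.6 and 100.8 FPKM (log2 change 3.56, SE 0.132, limma adjusted p = 0.00551), and ARRDC4 from 3.40 and 3.47 FPKM to 13.4 and 13.5 FPKM (log2 change 1.702, SE 0.117, limma adjusted p = 0.00801). In eKD2, ARRDC4 was higher again, at 27.2 and 23.9 FPKM (log2 change 0.88, limma adjusted p = 0.0339), and TXNIP at 129.1 and 109.2 FPKM did not pass (log2 change 0.33, limma adjusted p = 0.163). In eKD1 neither passed, with TXNIP at 68.4 and 66.9 FPKM and ARRDC4 at 11.01 and 11.7 FPKM. MLX itself was lowest in eKD2.

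Of 10 other E-box factors of the helix-loop-helix zipper class, 3 fell and 0 rose in hypoxia by limma, with 5 at an unadjusted p under 0.05 (median log2 change -0.04). These counts are near the shares over all tested genes, 32.2% called and 45.9% unadjusted. MGA, a large repressive MAX partner (from a mean of 12.5 to 5.22 FPKM, log2 change -1.11, limma adjusted p = 0.0155), and TFEC (from a mean of 1.57 to 0.360 FPKM, log2 change -0.91, limma adjusted p = 0.0478) fell most. Limma called 0 of 10 in eKD1 and eKD2, where 0.0651% and 9.61% of all tested genes were called. At an unadjusted p under 0.05 there were 1 and 6, against 21.7% and 32.8% of all genes. In eKD2, 9 of the 10 were higher and 1 was lower (median log2 change 0.255, against 0.05 for all).

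Among 15 SIN3-histone deacetylase and NCOR corepressor genes, 3 rose and 3 fell in hypoxia (median log2 change -0.04), which is near the 32.2% of all tested genes called. ING2 (log2 change 0.92) and ING1 (0.84), which tether SIN3 to methylated histones, rose most, and the corepressor NCOR1 (-0.46) fell. In eKD2 the deacetylase HDAC2 alone was called (log2 change 0.41, limma adjusted p = 0.0372), where 9.61% of all tested genes were called. Limma called 0 of 15 in eKD1, with 3 at an unadjusted p under 0.05, near the 21.7% of all genes.

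Of 14 MYC coactivators, 6 fell and 0 rose in hypoxia by limma, where 16% of all tested genes fell and 16.2% rose. An unadjusted p under 0.05 was seen for 8 of them, against 45.9% of all genes, and the median log2 change was -0.40, against 0.01. RUVBL1, an ATPase of chromatin remodelling complexes (from a mean of 220.3 to 105.1 FPKM, log2 change -1.06, limma adjusted p = 0.00665), and the histone acetyltransferase KAT2A (-0.88) fell most. In eKD2, RUVBL1 (from a mean of 105.1 to 175.9 FPKM, log2 change 0.74, limma adjusted p = 0.0280) and TRRAP, a scaffold that MYC contacts (log2 change 0.59, limma adjusted p = 0.0437), rose. Over all tested genes, 5.8% rose there. In eKD1 limma called 0 of 14, with 3 at an unadjusted p under 0.05, near the 21.7% of all genes.

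Among 16 regulators of MYC protein stability, 7 fell and 2 rose in hypoxia (median log2 change -0.23), where 16% of all tested genes fell and 16.2% rose. GSK3B, a kinase that marks MYC for degradation (from a mean of 35.6 to 17.5 FPKM, log2 change -0.996), and AURKA, a kinase that protects MYCN (from a mean of 58.9 to 29.2 FPKM, log2 change -0.99), fell most. The ubiquitin protease USP28 (0.94) and the ubiquitin ligase subunit SKP2 (0.35) rose. In eKD2 the ubiquitin ligase STUB1 alone was called (-0.31), where 9.61% of all tested genes were called. Limma called 0 of 16 in eKD1, with 1 at an unadjusted p under 0.05, against 21.7% of all genes. RNA levels do not measure the stability of the MYC protein.

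PVT1, a long non-coding RNA next to MYC, varied widely between duplicates. It was at 187.2 and 125.4 FPKM in normoxia and 285.7 and 135.8 FPKM in eKD2, with overlapping ranges. Control hypoxia gave 129.5 and 150.6 FPKM and eKD1 a lower 63.1 and 80.02 FPKM, which did not pass (log2 change -0.97, limma adjusted p = 0.117). CASC11, antisense to MYC, stayed at or under 0.344 FPKM, MYCNOS, antisense to MYCN, reached 1.66 FPKM, CASC8 and MYCNUT were listed at 0, and CCAT1 was not matched.

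Between the guides, limma called 0 genes of these 8 lists, where 0.403% of all tested genes were called. At an unadjusted p under 0.05 there were 13 MYC-activated and 3 MYC-repressed targets, both MLX-MondoA targets, 4 other E-box factors, 4 corepressor genes, 2 coactivators and 4 regulators of stability, and PVT1, against 23.6% of all genes.

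**Figure D4:**
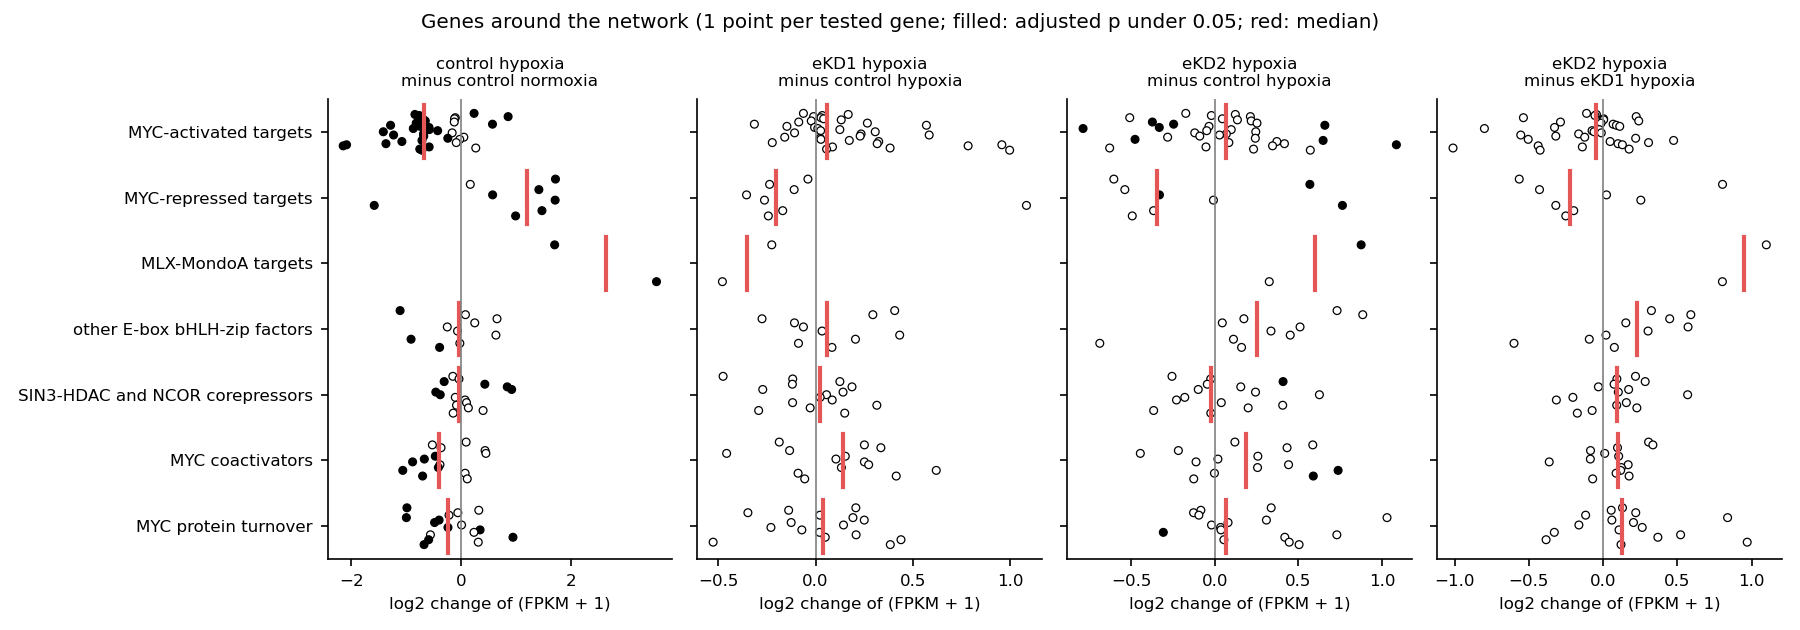
Log2 change, on the log2(FPKM + 1) scale, of each tested gene in 7 lists around the network in 4 comparisons. Filled points passed an adjusted p under 0.05 by limma and the line is the median, which for MYC-activated targets was -0.68 in hypoxia, 0.06 in eKD1 and 0.07 in eKD2.

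Genes with the profile most like MYC and MXI1 were sought over the 8 libraries among 10673 genes, by Pearson's r on the log2(FPKM + 1) scale. These r values are descriptions, since the 8 libraries form only 4 groups. For MYC they were JARID2 (0.983), RNF216P1 (0.978), CCDC51 (0.975), ID4 (0.972) and RTN1 (0.970), and 99 genes had r above 0.9. JARID2 averaged 26.6 FPKM in normoxia, 18.6 in control hypoxia, 29.5 in eKD1 and 33.4 in eKD2. For MXI1 they were TSC22D3 (0.996), PMS2CL (0.994), FYN (0.989), RAB30 (0.988) and GOT2 (0.986), and 290 genes had r above 0.9. TSC22D3 averaged 3.29 FPKM in normoxia, 11.1 in control hypoxia, 9.71 in eKD1 and 33.7 in eKD2. RNF216P1 and PMS2CL have near-identical copies, so their values are uncertain.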

How the data were processed

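Libraries were poly-A selected with a kit that does not mark strand and sequenced as single-end reads. The authors aligned reads with STAR to GRCh37 and computed FPKM with cufflinks and cuffnorm, whose scaling between libraries is not given in the sources used here. The deposited FPKM table was used as it stands. It holds no counts, so a count model could not be used. Gene-level values do not separate isoforms.

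From these values log2(FPKM + 1), for genes reaching 1 FPKM in 2 or more libraries, was fitted with limma 3.58.1 in R 4.3.3 (lmFit, eBayes with a variance trend), separately for each comparison of 2 against 2 libraries, on 15372 genes. P-values were two-sided and adjusted by Benjamini-Hochberg over all of them. SE is limma's standard error. Calls were made below an adjusted p of 0.05.

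Column totals ran from 865100 to 1041000 FPKM. Absolute depth is unknown. The worth of 1 read in low values gave relative depths of 55.7% to 100%. Duplicates correlated across genes at 0.954 to 0.963, and other pairs at 0.920 to 0.956, and no pair held equal values. Exons and positions came from GENCODE version 44 on GRCh37, which matched 98.7% of tested genes. Promoter windows came from RefSeq (table on GRCh38.p14).

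The 10 genes and all lists were chosen with earlier results of these data known. All 10 genes are named, and of each list the 2 largest rises and falls among called genes. A gene that this rule names is not reported here. AHCY and NDRG1, the values of RRP9 in eKD1, JARID2 and TSC22D3 as examples, and neighbouring genes that share exons were singled out after their values were seen. The fits were repeated with a pseudocount of 0.1, without the filter or with a mean of at least 5 FPKM, after 2 rescalings, with the spread shared by all 8 libraries, with the replicate number as a block, without the variance trend, on protein-coding genes, and leaving out each library.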

Additional observations from a re-analysis of the deposited data

Results flagged for a closer look

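MXI1 stood out because the guides differed in a direct test. The log2 change of eKD2 against eKD1 was 1.21 (SE 0.0789, limma adjusted p = 0.0461, 0.00368 to 0.207 over the alternatives), and both eKD2 libraries (55.9 and 59.5 FPKM) were above both eKD1 libraries (23.7 and 25.1 FPKM). Groups of 2 libraries are too small to test for a single deviating library.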

How the results depend on the processing

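With 1 library left out, the pairwise fits called 0 genes and 0 members in every comparison, with 1 residual degree of freedom. A shared fit of the 7 libraries left was chosen after seeing the data and assumes that a lone library varies like the others. It called 3480, 3533, 4124 and 4128 genes in hypoxia, 20, 22, 24 and 41 in eKD1, 670, 749, 924 and 1034 in eKD2 and 190, 212, 229 and 320 between the guides. Of the members it called 5 in hypoxia, 0 in eKD1, 2 to 3 in eKD2 and 1 to 2 between the guides.

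Without a filter on low values, 3024, 206, 853 and 260 genes were called in hypoxia, eKD1, eKD2 and between the guides, with 2 members in hypoxia and 0 in eKD2. For eKD1, eKD2 and the guides in turn, the fit shared by all libraries called 761, 2601 and 1391 genes (1, 3 and 2 members), protein-coding genes alone 155, 2462 and 549 (1, 4 and 2 members), and no variance trend 6, 28 and 5 (0 members in each). A mean of at least 5 FPKM gave 105 genes between the guides, and under either rescaling 0 members were called there. Higher genes made up 50.3% of the hypoxia calls and 28.4% with equal totals. In eKD2 they made up 60.3%, against 77.5% with equal totals and 47.4% with median-of-ratios rescaling. The cause was not tested.

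Deviations of same-numbered libraries from their group means correlated at -0.057 to 0.126 between groups. With 2 libraries per group, these values cannot decide whether same-numbered libraries were prepared as pairs. The replicate block left 2570 genes and 2 members (MYC and MXD4) called in hypoxia, and 0 genes and 0 members in the other 3 comparisons.

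The sign turned for 5 changes, none of them called. In eKD1, MXI1 was 0.0053 with equal totals and ran from -0.1623 to 0.0348 with a library left out, and MXD4 from -0.0555 to 0.2221. In eKD2, MXD1 was 0.0306 with equal totals and ran from -0.1889 to 0.1007, and MYCL from -0.0474 to 0.1774. Between the guides MNT ran from -0.2663 to 0.3812, and was -0.0297 without replicate 1 of eKD2. All other member changes kept their sign in every alternative. Duplicates and unknown absolute depth limit the low genes MYCN, MYCL and MXD1 most.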
